A study of Mus musculus with 4 samples.

Results

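The genes described here encode the protein parts of the spliceosome and the heterogeneous nuclear ribonucleoproteins (hnRNPs), measured in mouse oocytes after a hydrostatic pressure treatment. Members were all genes on the array whose name in the scanner files begins with Snrp, Lsm and a digit, Sf3a or Sf3b, Sfrs, Prpf or Hnrp. This gave 82 genes with 165 probes, of 27623 genes with 41174 probes on the array. By prefix they comprise 13 snRNP proteins, 12 Lsm proteins, 8 SF3 subunits, 13 Prp factors, 16 SR proteins and SR-related proteins, and 20 hnRNPs. The scanner files use older names, and the genes are called here by their RefSeq symbols, so that Sfrs1 is Srsf1, Sfrs10 is Tra2b and Hnrpab is Hnrnpab.

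The treated group consisted of pools of 50 oocytes kept for 60 min at 37 °C under a hydrostatic pressure of 20 MPa, and the control group of pools of 50 oocytes held in the same way without the pressure. Each of 4 two-colour arrays carried 1 treated pool in the red (Cy5) channel and 1 control pool in the green (Cy3) channel, so dye and treatment cannot be told apart. The labels give neither the strain nor the maturation stage of the oocytes. The RNA of each pool was amplified from 240 pg in a 2-round procedure, and the 4 replicates are biological ones according to the series' design text. Because pools were measured, less RNA per cell and fewer intact cells in a pool cannot be told apart.

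1 array differed from the rest, that of replicate 1. Over all probes its log2 ratio had a correlation of r = -0.17 with replicate 2, -0.15 with replicate 3 and -0.19 with replicate 4 (a description, since probes are not replicates). The other arrays were only weakly alike, with r = 0.29 between replicates 2 and 3, 0.23 between 3 and 4, and 0.09 between 2 and 4. Set against the control pool, the treated pool of replicate 1 was the brighter one, with a 99th percentile of net signal 2.56 times as high, whereas on the other arrays this ratio was 0.25 to 0.40. The mean without replicate 1 is therefore given beside several members, and where it is not given the mean may have moved as well. A probe is called detected in a channel where the scanner software marked it well above background. Of 43379 spots, the treated channel had 7049 to 11155 detected and the control channel 8309 to 10837. Of 16 oocyte markers 11 could be tested, with a median log2 ratio of -0.03 and a range from -0.74 for H1f8 to 0.48 for Gdf9. Of the 11, 6 lay below 0 and 0 passed. Among the oocyte markers not tested, Nlrp5 was detected on no array, and Zp2 and Figla on at most 1 array in a channel. Of 16 markers of cumulus and granulosa cells 7 could be tested, with a median log2 ratio of -0.07. Tnfaip6 was detected on 4 arrays in both channels, and Ptgs2 and Cyp19a1 in 3 treated and 4 control pools. Of the 16, 4 were detected on no array (Amh, Fshr, Foxl2 and Star).

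The spliceosome removes introns from precursor mRNA. Small nuclear ribonucleoproteins (snRNPs), built on rings of Sm or Lsm proteins, recognise the ends of the intron and its branch site. SF3 subunits hold the branch site, and Prp factors assemble and remodel the complex. SR proteins mostly promote the use of nearby splice sites and hnRNPs often oppose it. Growing oocytes make and store large amounts of mRNA, and in fully grown oocytes transcription is largely silent, so that their RNA content rests on stored transcripts and their decay.

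No spliceosome or hnRNP gene passed the test between treated and control oocytes. Of the 59 members that could be tested, 0 were called by limma at an adjusted p of 0.05, where 0 of 6919 genes in all were called (0%). The members' mean log2 ratios, treated over control, were lowest for Hnrnpul1, at -0.87, with a lower quartile of -0.22 and an upper quartile of 0.17. The median was -0.00176, against -0.0161 over all tested genes. Of the 59 means, 30 lay below 0 and 29 above, where 52.4% of all tested genes lay below. At an unadjusted p under 0.05 there were 2 members, Prpf39 among them, a share of 3.39% against a background of 4.16%. A mean at least 2-fold apart was reached by 0 members, against 2.08% of all tested genes. This count depends on the background correction: with the scanner's processed signals, and likewise with the authors' values, it was 13 members, against 24.9% of all tested genes. The members of that size included Hnrnpul1 (-3.08), Srsf1 (-2.50), Lsm6 (-1.74) and Prpf39 (-1.02), and 0 of the 13 passed the test. Hnrnpul1, Srsf1 and Lsm6 were detected in 1, 1 and 2 treated pools, so their ratios rest on treated signals near background.

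These results do not show that the levels were equal. The half-width of a member's 95% confidence interval was 0.58 on the log2 scale at the median over members. For 40 of the 59 members the whole interval lay within 2-fold either way with this background correction. Among the members of these 40 named by the rule below, Lsm4, Srek1 and Srsf1 were more than 2-fold lower with the scanner's processed signals. Their intervals therefore do not exclude such a change. The other members of the 40 were not compared in this way, so their intervals hold for this background correction only. For the members outside the 40, a change of 2-fold or more in at least 1 direction was not bounded by these arrays. Among members the intervals reached farthest for Prpf4, from -0.62 to 2.34, and for Hnrnpul1, from -2.01 to 0.28.

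**Figure D1:**
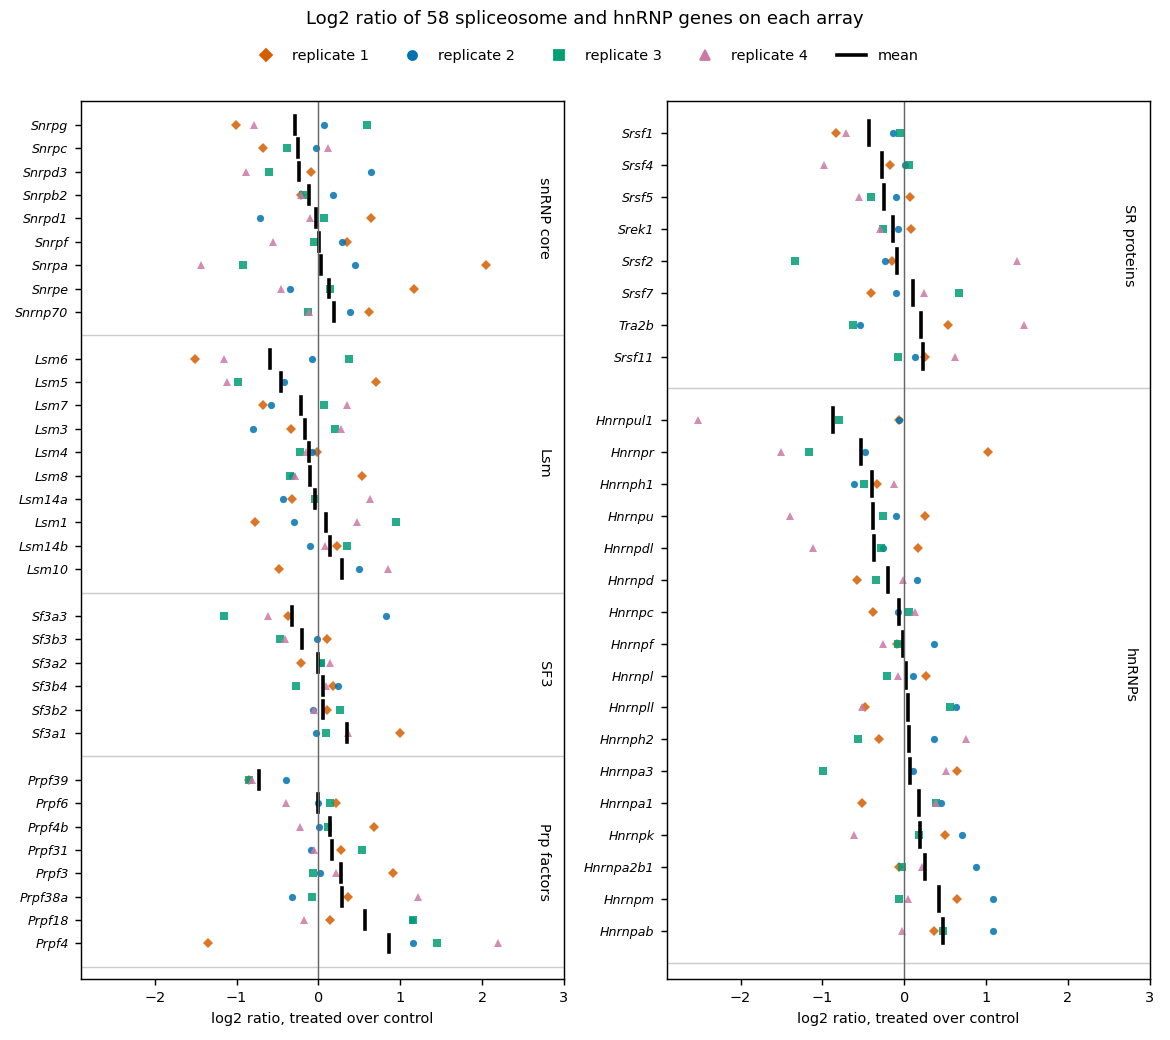
Log2 ratio of treated over control oocytes (x axis) for 58 of the 59 members tested (rows), in 2 panels grouped by prefix, with 1 symbol for each array and a black bar at the mean. The means drawn run from -0.87 (Hnrnpul1) to 0.86 (Prpf4), and the arrays of most genes lie on both sides of 0.

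The filter on dim probes bears on these counts. A gene was tested if a probe of it was detected in either the treated or the control channel on 3 or more arrays. Of the 59 tested members, 44 met this in both channels, 15 in the control channel alone and 0 in the treated channel alone. Over all tested genes the shares were 20.2% in the control channel alone and 3.61% in the treated channel alone. A member that passed through the control channel alone is more likely to show a ratio below 0, and 12 of these 15 had a mean below 0, with a median of -0.12. The matching share over all genes is not given here, so the count says nothing particular about the members. The 38 members detected on all 4 arrays in both channels had a median log2 ratio of 0.06, with 15 below 0 and 23 above. All genes meeting the same criterion had a median of 0.02, and 47.4% of them lay below 0, against 39.5% of the 38 members.

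The 23 members that could not be tested include central parts of the machinery. Prpf8, the scaffold of the catalytic centre, and the Sm genes Snrpb, Snrpd2 and Snrpn were detected on no array in either channel, and the same holds for Snrpa1, Lsm2, Prpf38b, Prpf40b, Scaf4, Hnrnpa0, Hnrnph3 and Hnrnpul2. Sf3b1, the SF3 subunit that clasps the branch site, was detected on at most 1 array in each channel. Of the SR group, 8 of 16 members could be tested, and Srsf3, Srsf6 and Srsf9 were among those that could not. A dim probe gives a bound on the signal and does not show that the transcript was missing.

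Some genes had more than 1 kept probe, and these are of use because probes of a gene are separate measurements on the same RNA. The probes are 60 bases long, and 2 pairs overlap in sequence. For these pairs the 30 bases around the overlap are shown, 5′ to 3′, with the shared bases in capitals. The Prpf18 probes share 26 bases and lie on the minus strand of chromosome 2 in build mm7, the upstream one at 4539533 to 4539592 and the downstream one at 4539499 to 4539558. The Srsf7 probes share 20 bases and lie on the minus strand of chromosome 17, at 78497073 to 78497132 and 78497033 to 78497092.
Prpf18 upstream probe: agaaACTCCTGGGATATGTAGGAAGATGAC
Prpf18 downstream probe: ACTCCTGGGATATGTAGGAAGATGACcttt
Srsf7 upstream probe: ttgttgaatgTATTAACATCTTATGGTCTG
Srsf7 downstream probe: TATTAACATCTTATGGTCTGaaaatgtggg
For Prpf39, the member with the smallest p, the first 30 bases of each kept probe are shown in lower case, since no part of them is singled out. Prpf39 has its brightest probe at 63002335 to 63002394 and another at 63000863 to 63000922, on the plus strand of chromosome 12.
Prpf39 brightest probe: ggcaaacaagaatggaatcacctttccagt
Prpf39 second probe: gatttgtagccttaactgtagggagaaaaa
The GC content of these 6 whole probes ran from 25% for the Srsf7 downstream probe to 35% for the Prpf18 and Prpf39 probes.

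Overlapping probes gave close ratios. The downstream Prpf18 probe had log2 ratios of 0.14, 1.15, 1.16 and -0.17 on replicates 1 to 4, a mean of 0.57 ± 0.30 (SE, n = 4). The upstream Prpf18 probe had 0.04, 0.58, 1.16 and 0.02, a mean of 0.45 ± 0.25. Both were high on replicates 2 and 3 and near 0 on replicates 1 and 4. For Srsf7 the downstream probe had -0.40, -0.10, 0.67 and 0.24 and the upstream probe -0.29, -0.15, 0.44 and 0.15, with the same sign on every array. The spread of Prpf18 and Srsf7 between arrays was thus shared by both probes of the gene.

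Over the 18 members with several kept probes, 39 probes in all, the probes of 11 genes agreed in the sign of their mean log2 ratio and those of 7 did not. The brightest pair of probes differed by 0.19 on the log2 scale at the median. Hnrnpa2b1 had 0.25 and -0.33, and Hnrnpk 0.19 and -0.23, from probes a short distance apart on 1 chromosome. The probes of Hnrnpa1 lie on chromosomes 15 and 9, with 0.18 and -0.12, and the second may read another locus. The 4 probes of Srsf2 had means between -0.09 and -0.02.

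**Figure D2:**
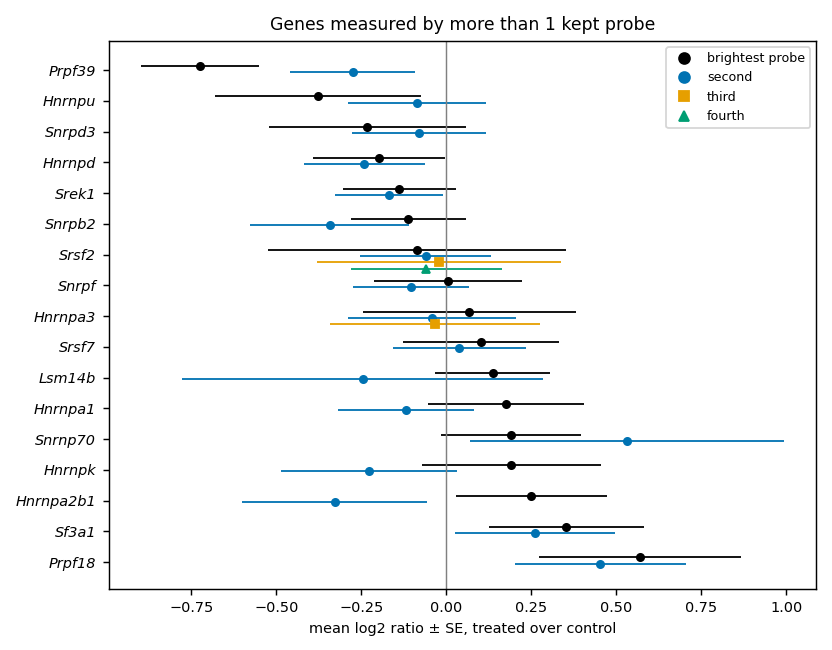
Mean log2 ratio of treated over control oocytes with its SE (x axis, n = 4 arrays) for each kept probe of 17 of the 18 members with several (rows), the brightest probe in black. The probes of Prpf18, Srsf2 and Srsf7 lie close together, and those of Hnrnpa2b1 and Hnrnpk lie on either side of 0.

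The snRNP proteins had a median log2 ratio of -0.03 over the 9 genes tested, which ran from -0.29 for Snrpg to 0.19 for Snrnp70. Sm proteins form the ring common to most spliceosomal snRNPs, and 5 of 8 Sm genes could be tested. Snrpg, an Sm ring protein, had log2 ratios of -1.01, 0.07, 0.59 and -0.79 on replicates 1 to 4, a mean of -0.29 ± 0.32 (SE, n = 4), and -0.04 without replicate 1. It was below 0 on replicates 1 and 4 and above 0 on the other arrays. Snrnp70, the U1 protein that contacts the U1 RNA, had 0.62, 0.38, -0.13 and -0.12, a mean of 0.19 ± 0.21, and 0.05 without replicate 1. The second Snrnp70 probe, detected on 4 arrays in both channels, differed, with -1.21, 0.83, 1.33 and 1.18, a mean of 0.53 ± 0.46. Snrpb2, a protein of the U2 particle named for its bright probe, had -0.21, 0.17, -0.19 and -0.22, a mean of -0.11 ± 0.17. The second Snrpb2 probe, detected in 0 treated and 3 control pools, had a mean of -0.34 ± 0.23. Snrpa, another U1 protein, ran from 2.05 on replicate 1 to -1.44 on replicate 4 around a mean of 0.03. Without replicate 1 the Snrpa mean was -0.64. This group's median changed sign between arrays, at 0.35, 0.17, -0.13 and -0.46 on replicates 1 to 4, a mean of -0.02 ± 0.35 (SD, n = 4).

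The Lsm proteins had a median log2 ratio of -0.11 over 10 tested genes, of which 7 lay below 0. Lsm1 to Lsm8 form rings that bind U6 RNA in the nucleus or help decapping of mRNA in the cytoplasm, and 6 of the 7 tested had a mean below 0, where 52.4% of all tested genes lay below. Of those 6, 3 (Lsm4, Lsm6 and Lsm8) had passed the filter through the control channel alone, which favours a ratio below 0. Lsm6, a member of both rings, had the lowest mean, with -1.50, -0.08, 0.37 and -1.15 on replicates 1 to 4, a mean of -0.59 ± 0.36 (SE, n = 4). Without replicate 1 the Lsm6 mean was -0.29. Its probe was detected in 2 treated and 4 control pools. Lsm4, also of both rings, was below 0 on 4 of 4 arrays, at -0.02, -0.07, -0.23 and -0.15, a mean of -0.12 ± 0.16. It was detected in 1 treated and 4 control pools. Lsm10, which belongs to the U7 particle of histone mRNA processing, had the highest mean, 0.29 ± 0.33 from 3 arrays, since its spot was an outlier on replicate 3. Its log2 ratios were -0.48, 0.49 and 0.85 on replicates 1, 2 and 4, and the mean was 0.67 without replicate 1 and 0.0083 without replicate 4. Lsm14b, an RNA-binding protein of stored maternal mRNA named for its bright probe, had 0.22, -0.10, 0.35 and 0.07, a mean of 0.14 ± 0.17, and its second probe had -0.25 ± 0.53.

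The SF3 subunits lay close to 0, with a median log2 ratio of 0.03 over 6 genes. Sf3a1, a subunit of the SF3a complex, had the highest mean, with 0.99, -0.03, 0.09 and 0.36 on replicates 1 to 4, a mean of 0.35 ± 0.23 (SE, n = 4), and 0.14 without replicate 1. Sf3a3, of the same complex, had the lowest, with -0.37, 0.83, -1.16 and -0.61, a mean of -0.33 ± 0.35. Sf3b4 of the SF3b complex had 0.18, 0.23, -0.28 and 0.09, a mean of 0.06 ± 0.18, and 0.015 without replicate 1. The arrays of all 3 genes lay on both sides of 0. The SD over arrays had a median of 0.26 in this group, against 0.52 over all tested genes. A 95% interval within 2-fold was found for 5 of its 6 genes. Sf3a2 and Sf3b3 were dim, detected in 2 and 1 treated pools. The part of low signal in the small spread was not tested.

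Among the 9 Prp factors tested, 7 had a mean above 0 and 2 below (22.2%), where 52.4% of all tested genes lay below. Their log2 ratios had a median of 0.27, and on the single arrays the median was 0.28, -0.01, 0.14 and -0.05. Prpf39, a U1-associated splicing factor, was lower in treated oocytes on 4 of 4 arrays without passing the test. Its normalized log2 signal was 7.48, 7.94, 7.60 and 7.93 in the treated pools of replicates 1 to 4, against 8.33, 8.33, 8.45 and 8.74 in the control pools. Every treated value lay under every control value, the only such case among the 59 members, and 0.968% of all tested genes were like it. The log2 ratios were -0.85, -0.39, -0.85 and -0.81, a mean of -0.72 ± 0.17 (SE, n = 4), with a 95% interval from -1.16 to -0.29 and an adjusted p of 0.93 from limma. Without replicate 1 the mean was -0.68 and the adjusted p 0.35. The second Prpf39 probe had -0.16, 0.01, -0.31 and -0.64, a mean of -0.28 ± 0.18.

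Prpf4, a protein of the U4/U6 particle, varied widely between arrays, with a log2 signal of 9.29, 13.57, 10.71 and 12.70 in the treated pools, against 10.64, 12.42, 9.26 and 10.51 in the control pools. It was lower in the treated pool of replicate 1 and higher in the treated pools of replicates 2, 3 and 4. The log2 ratios were -1.35, 1.15, 1.45 and 2.20, with a mean of 0.86 ± 0.59 over 4 arrays and 1.60 without replicate 1, where limma's adjusted p was 0.17. Prpf18, which acts at the second step of splicing, is described with its probes above.

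**Figure D3:**
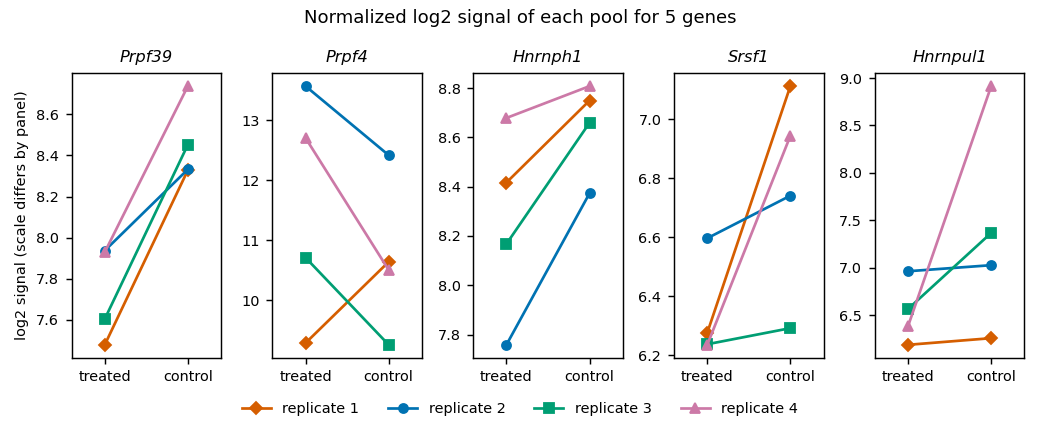
Normalized log2 signal (y axis, a separate scale in each panel) of treated and control pools for 5 members, with a line for each of 4 arrays. The treated and control pools of Prpf39 do not overlap, at 7.48 to 7.94 against 8.33 to 8.74, whereas those of the other genes overlap.

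The SR proteins and SR-related proteins had a median log2 ratio of -0.11 over 8 tested genes. Srsf1, the SR protein also known as SF2/ASF, was below 0 on 4 of 4 arrays. Its log2 signal was 6.28, 6.60, 6.24 and 6.24 in the treated pools, against 7.11, 6.74, 6.29 and 6.94 in the control pools, so that the groups overlapped. The log2 ratios were -0.84, -0.14, -0.05 and -0.71, a mean of -0.44 ± 0.21 (SE, n = 4) with an adjusted p of 0.93 from limma. Without replicate 1 the Srsf1 mean was -0.30. The Srsf1 probe was detected in 1 treated and 3 control pools. Srek1, an SR-related regulator, was detected in 0 treated and 3 control pools, so that it passed the filter through the control channel alone and its treated level is only bounded. Its log2 ratios were 0.08, -0.08, -0.26 and -0.29, a mean of -0.14 with a 95% interval from -0.56 to 0.28. Without replicate 1 the mean was -0.21, and no difference in either direction was shown. Srsf11 had the highest mean, 0.23 ± 0.19, and Srsf7, named for its bright probe, had 0.10 ± 0.23, and 0.27 without replicate 1. Srsf2 had a mean of -0.09 that joined -1.34 on replicate 3 and 1.37 on replicate 4.

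The hnRNPs package nascent RNA and act in splicing, export and stability, and 17 of 20 could be tested. Their median log2 ratio was 0.02, with 8 below 0 and 9 above. Hnrnpul1 had the lowest mean of all members, from a log2 signal of 6.19, 6.96, 6.57 and 6.39 in the treated pools, against 6.26, 7.03, 7.37 and 8.91 in the control pools. The log2 ratios were -0.07, -0.06, -0.80 and -2.53, a mean of -0.87 ± 0.46 (SE, n = 4), so that the size of the mean came from replicates 3 and 4. Without replicate 4 the mean was -0.31, and without replicate 1 it was -1.13. Its probe was detected in 1 treated and 3 control pools. Hnrnph1, which binds G-rich RNA, had a log2 signal of 8.42, 7.76, 8.17 and 8.68 in the treated pools, against 8.75, 8.37, 8.66 and 8.81 in the control pools. It was below 0 on every array, at -0.33, -0.61, -0.49 and -0.13, a mean of -0.39 ± 0.17, while the pools overlapped between arrays. Its paralog Hnrnph2 had -0.31, 0.36, -0.56 and 0.75, a mean of 0.06 ± 0.27. Hnrnpab had the highest mean of the group, with 0.36, 1.09, 0.48 and -0.03, a mean of 0.47 ± 0.23, and Hnrnpf, named for its bright probe, had -0.01 ± 0.18.

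**Figure D4:**
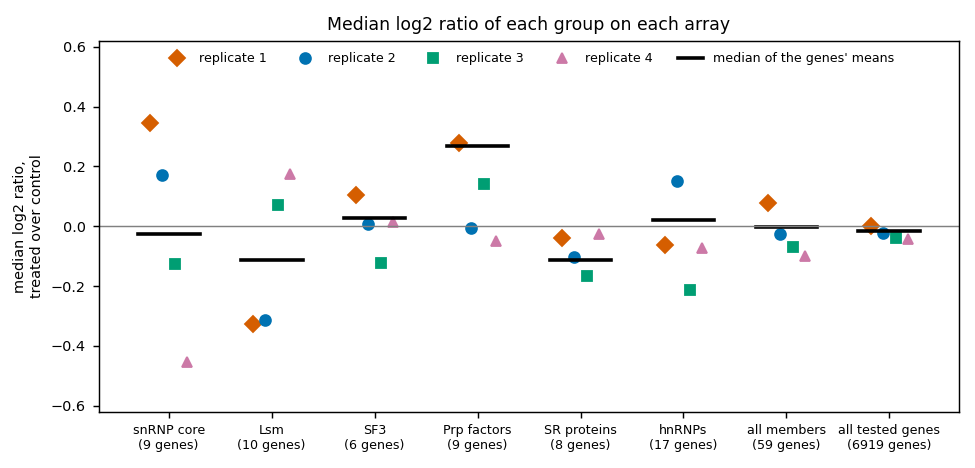
Median log2 ratio of treated over control oocytes (y axis) on each of 4 arrays (symbols) for the 6 prefix groups, the 59 members together and all 6919 tested genes, with a black bar at the median of the genes' means. The medians of every prefix group but the SR proteins lie on both sides of 0 between arrays, and those of all members lie between -0.10 and 0.08.

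Across arrays the members' median stayed near 0. Loess normalization centres the log2 ratios of each array near 0, so a shift common to all genes would not be seen. The members' median log2 ratio was 0.08, -0.03, -0.07 and -0.10 on replicates 1 to 4, a mean of -0.03 ± 0.08 (SD, n = 4). Over all tested genes the median lay between -0.04 and 0.000414. Of the 58 members with 4 values, 5 lay below 0 on every array, a share of 8.62% against a background of 9.34%. They are Lsm4, Prpf39, Srsf1, Hnrnph1 and Hnrnpul1. Above 0 on every array there were 0 members, against a background of 2.94%. Of these 5 genes, Lsm4, Srsf1 and Hnrnpul1 had passed the filter through the control channel alone.

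Replicate 1 had the opposite sign to all of the other arrays for 11 of the 58 members (19.0%), against 28.0% of all genes with 4 values. Besides Prpf4 these include Hnrnpr, with 1.02 on replicate 1 and -0.48, -1.16 and -1.51 on replicates 2 to 4, and Lsm5, with 0.70 and then -0.42, -0.99 and -1.11. The means of Hnrnpr and Lsm5 without replicate 1 were -1.05 and -0.84. Hnrnpr and Lsm5 were singled out after their values were seen, as were Snrpa, Srsf2, Hnrnph2 and the genes with several probes. Without replicate 1 the members' median was -0.05, against -0.07 over all tested genes. There were then 4 members under an unadjusted p of 0.05 (Lsm5, Prpf39, Prpf4 and Hnrnpr), a share of 6.78% against a background of 10.9%, and 0 passed after adjustment.

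Other genes of the splicing pathway, from a list of 126 that the name rule does not take, gave 63 that could be tested. Of these 0 passed in either direction, 34 lay below 0 and 29 above, and the median log2 ratio was -0.01. Below 0 on 4 of 4 arrays, and with the lowest p of such genes, were Smndc1, a U2-associated factor related to the SMN protein, at -0.78 ± 0.23, the RNA helicase Dhx9 at -0.86 ± 0.28 and the U1-associated Luc7l2 at -0.55 ± 0.22 (SE, n = 4). Likewise above 0 were Sart3, which recycles the U4/U6 particle, at 0.53 ± 0.23, Mbnl2 at 0.16 ± 0.16 and the polypyrimidine tract-binding protein Ptbp1 at 0.08 ± 0.16. On every array 10 genes of this list lay below 0 (15.9%) and 3 above, with the backgrounds given above.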

How the data were processed

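Gene expression was compared on 4 two-colour arrays, each with 1 treated and 1 control pool of oocytes. Per the file headers and the submitters' processing notes, the deposited scanner files hold mean spot intensity and median local background intensity from Agilent Feature Extraction 9.5.1.1, with probe positions in build mm7. They further hold intensities that the software had processed (background subtraction and dye normalization), with a log10 ratio, red over green. The value table deposited by the authors repeats this log10 ratio, to within 5e-10 on each array and with a median of 0.

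The deposited intensities were analysed with limma 3.58.1 in R 4.3.3: normexp background correction (offset 50), then loess within each array, in which control spots had weight 0. Control and outlier spots were then removed, and repeated spots were averaged per probe. Of 41174 probes 8115 were kept, and each gene was taken from its brightest kept probe. Names came from the files, brought up to date with RefSeq (GRCm38.p6, names only). Departure of the log2 ratio from 0 was tested two-sided (lmFit, eBayes), and p-values were adjusted by Benjamini-Hochberg over 6919 genes. The fit was tested on simulated data. Signals per channel are after Aquantile normalization between arrays, and single probes of a gene were read from a fit over all kept probes.

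The members, the gene lists and the alternatives were chosen with earlier results of these data known. Members were named if they had 1 sign on all 4 arrays, or were the brightest, lowest or highest of their prefix group, or lay above background in 1 channel alone. Of the other splicing genes, the 3 with the smallest p in each direction among those of 1 sign were named. The array pairs the pools, so the reported test is the paired analysis, and the number of arrays limits the precision. The results of 1 gene are not reported here.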

Additional observations from a re-analysis of the deposited data

Results flagged for a closer look

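Of 27 sets of 4 array values (the named members and the group medians), 2 had a single array that lay apart from the rest by Dixon's test, as chance alone brings about in roughly 5% of sets. Prpf39 had a log2 ratio of -0.39 on replicate 2, against -0.85 to -0.81 on the other arrays. Snrpb2 had 0.17 on replicate 2, against -0.22 to -0.19 on the others. These values are from the brightest probe of each gene, whose treated channel was above background on all 4 arrays. The second Snrpb2 probe had -0.14 on replicate 2, but was detected in 0 treated pools.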

How the results depend on the processing

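In each of the 13 alternatives run, 0 genes and 0 members passed after adjustment; the lowest adjusted p of a member was 0.17 (limma, without replicate 1), and unadjusted counts ran from 134 to 830 over all genes and from 0 to 6 among members. No block for slide or scan was fitted. With processed signals and with the authors' values the members' median log2 ratio was -0.118 (all genes -0.116 and -0.117), and with median centring -0.43 (all genes -0.34); when 1 array was left out it lay between -0.053 and -0.014. Of 267 values of the 21 named members, 248 kept their sign. With median centring the sign turned for Hnrnpab (-0.29), Lsm14b (-0.64), Sf3b4 (-0.61), Snrnp70 (-0.49), Srsf11 (-0.29) and Srsf7 (-0.60). The median of all genes was then -0.34, and the cause of these sign changes was not tested. Lsm14b was at -0.052 with processed signals and with the authors' values, and at -0.055 as a mean over its probes. Hnrnpf was at 0.043 with no background subtraction. With array weights Hnrnpf was at 0.17, Sf3a3 at 0.15, Snrpb2 at 0.023 and Snrpg at 0.016; the cause was not tested. When 1 array was left out, Hnrnpf ran from -0.14 to 0.067, Sf3b4 from -0.0041 to 0.17 and Srsf7 from -0.086 to 0.27. The Prp factors' median stayed above 0, from 0.084 to 0.43, and over the alternatives Prpf39 ran from -1.24 to -0.50. Processed signals and the authors' values gave larger ratios for several named members: Hnrnpul1 was at -3.08, Srsf1 at -2.50, Lsm4 at -1.89, Lsm6 at -1.74 and Srek1 at -1.89 and -1.84, all 5 genes that passed the filter through the control channel alone, and Sf3a1 was at 0.97. Members at least 2-fold apart then numbered 13, where 24.9% of all tested genes were as far apart, and there were 0 to 3 such members in the other alternatives. The dim probes limit what could be seen: 3946 genes, 38 of them members, were detected in both channels on all 4 arrays. No paired analysis was possible beyond the reported test, because the ratio on an array is itself a paired value.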
